A study of Rattus norvegicus with 24 samples.

Results

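The respiratory chain subunits that are encoded in the nucleus were described complex by complex in kidneys (left side) from 24 male rats of the PKD/Mhm (Cy/+) strain. Members were chosen by symbol: Nduf genes of the a, b, c, s and v series (complex I), Sdha to Sdhd (complex II), Uqcr genes and Cyc1 (complex III), Cox4 to Cox8 (complex IV) and Atp5 genes (complex V). A member also needed at least 10 counts in at least 6 samples. Of 17334 gene identifiers in the files, 83 carried such a symbol and 80 passed, with 36 in complex I, 4 in complex II, 9 in complex III, 14 in complex IV and 17 in complex V. Cox8b, Cox8c and Cox6c-ps1 did not pass. All 80 members also passed the low-count filter of the tests. Complexes were assigned from the symbol alone, so that Cox7a2l and Ndufa4, which is also placed in complex IV, stayed under the letters of their names. A further 29 protein-coding genes with matching symbols, among them Ndufa3, Ndufb1, Ndufc1, Ndufs6 and Cox7a1, were not analysed here. The identifier listed as Ndufs6-ps1 is a pseudogene in the gene table used. Many members have processed pseudogenes or close paralogs, and how the authors' counting divided reads between such copies is uncertain.

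All animals carried the Cy allele in heterozygous form, were picked as cystic by abdominal palpation and were 8 months old, and no group without cysts was analysed here. The Cy allele is a missense change in Anks6, which encodes SamCystin. The 6 control rats (Ctrl) were untreated. The other groups of 6 were given, once a month for 6 months, either ABCB5+ cells, human stromal cells from skin, by intraperitoneal (i.p. ABCB5+) or intravenous (i.v. ABCB5+) injection, or CoCM. CoCM is the supernatant of ABCB5+ cells cultured with THP-1-derived macrophages under IFN-γ and LPS, and the sources differ on its route. The animals are separate rats, and whole-kidney tissue was sequenced. Animal numbers ran from 1 to 24 in Ctrl and from 26 to 43 under treatment, so the order of the animals and treatment cannot be told apart.

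The respiratory chain moves electrons from NADH (complex I) and succinate (complex II) through ubiquinone to complex III, cytochrome c and complex IV, which reduces oxygen. Complexes I, III and IV pump protons across the inner mitochondrial membrane, and complex V (ATP synthase) makes ATP from the returning flow. In the kidney the proximal tubule and the thick ascending limb are rich in mitochondria and depend on this pathway for salt and solute transport. Complexes I, III, IV and V also hold subunits encoded in mitochondrial DNA, and none of the 13 was analysed here.

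Nuclear genes of the chain are known targets of NRF1, of the ETS factor GABP and of YY1, and so the promoters of the members were read first. RefSeq promoters of GRCr8 (250 bases before to 50 after the start) were matched by gene identifier for 68 of the 80 members. The NRF1 core GCGCANGCG was found, on either strand, in 25% of them, against 6.26% of all 27457 promoters in the table and 12% of the 10328 promoters of genes that passed the same count rule. The ETS core CCGGAAG was in 30.9%, against 9.22% and 16.4%. The YY1 core AANATGGCG was in 22.1%, against 3.33% and 5.78%. No member promoter had overlapping ETS and YY1 matches. At least 1 of these motifs was in 43 of 68 member promoters (63.2%), against 16.4% of all promoters and 29.3% of those of expressed genes. By complex the share was 61.3% in I, 75% in II, 83.3% in III, 45.5% in IV and 68.8% in V, with only 4 to 31 promoters each. CCAAT (33.8% against 37.7% of all promoters and 37.4% of those of expressed genes) was not more frequent in members. Nor was TATAAA (7.35% against 14.3% and 7.48%). The member of highest mean level in each complex is shown, 5′ to 3′, together with Cox6a2, the lowest member of complex IV, whose values ran against the others. Capitals mark NRF1, ETS and YY1 matches. They are descriptions of letters, not of bound sites.
Ndufb4 (complex I, GRCr8 chr11:76568928-76569227, + strand): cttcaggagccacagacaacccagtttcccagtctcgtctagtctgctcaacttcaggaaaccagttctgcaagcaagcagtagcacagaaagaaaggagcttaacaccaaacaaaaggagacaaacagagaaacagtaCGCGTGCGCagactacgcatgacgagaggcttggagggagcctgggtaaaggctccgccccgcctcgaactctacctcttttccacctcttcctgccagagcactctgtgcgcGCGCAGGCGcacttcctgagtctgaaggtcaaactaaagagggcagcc
Sdhc (complex II, GRCr8 chr13:86097976-86098275, - strand): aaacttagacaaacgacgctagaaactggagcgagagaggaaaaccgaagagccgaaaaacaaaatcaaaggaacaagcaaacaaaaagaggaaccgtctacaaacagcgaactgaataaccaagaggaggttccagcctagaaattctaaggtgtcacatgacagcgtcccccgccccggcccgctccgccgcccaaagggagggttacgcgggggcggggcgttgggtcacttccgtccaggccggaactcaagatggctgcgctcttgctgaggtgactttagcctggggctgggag
Uqcr10 (complex III, GRCr8 chr14:83791865-83792164, - strand): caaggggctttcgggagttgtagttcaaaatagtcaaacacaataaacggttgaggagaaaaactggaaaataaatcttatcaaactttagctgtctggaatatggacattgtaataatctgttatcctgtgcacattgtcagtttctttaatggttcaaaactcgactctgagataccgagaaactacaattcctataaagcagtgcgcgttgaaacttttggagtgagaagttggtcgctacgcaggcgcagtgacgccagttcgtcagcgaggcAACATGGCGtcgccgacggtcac
Cox8a (complex IV, GRCr8 chr1:213833574-213833873, - strand): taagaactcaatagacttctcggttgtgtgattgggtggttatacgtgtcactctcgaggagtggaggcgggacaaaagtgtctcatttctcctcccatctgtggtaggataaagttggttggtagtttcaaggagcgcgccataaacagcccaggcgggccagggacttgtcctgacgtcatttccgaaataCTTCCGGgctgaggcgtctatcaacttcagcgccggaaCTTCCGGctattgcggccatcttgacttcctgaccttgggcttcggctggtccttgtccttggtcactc
Atp5f1b (complex V, GRCr8 chr7:1099808-1100107, + strand): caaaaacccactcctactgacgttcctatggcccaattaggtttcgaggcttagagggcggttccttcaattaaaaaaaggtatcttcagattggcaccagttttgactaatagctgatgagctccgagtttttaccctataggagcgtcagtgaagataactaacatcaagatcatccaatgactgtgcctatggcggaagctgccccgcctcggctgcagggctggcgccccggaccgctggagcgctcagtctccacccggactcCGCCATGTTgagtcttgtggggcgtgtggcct
Cox6a2 (complex IV, GRCr8 chr1:192219667-192219966, - strand): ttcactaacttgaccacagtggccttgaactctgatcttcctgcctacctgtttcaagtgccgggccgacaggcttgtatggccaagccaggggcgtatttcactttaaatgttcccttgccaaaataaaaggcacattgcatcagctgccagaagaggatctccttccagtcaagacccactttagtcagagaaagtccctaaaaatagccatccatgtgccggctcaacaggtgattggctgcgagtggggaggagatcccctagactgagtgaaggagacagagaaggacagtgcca
Ndufb4 held a pair of NRF1 matches, Cox8a a pair of ETS matches, and Uqcr10 and Atp5f1b a YY1 match each near the 3′ end of the window. No match of the 3 cores fell in the Sdhc or the Cox6a2 window.

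Total counts ranged from 9304630 to 14125457 per sample, and the members held 1.39% to 3.11% of them. Of the libraries, 4 stood apart. On the leading principal component of all genes (56.3% of the variance), CoCM animal 39, i.p. ABCB5+ animal 38 and i.v. ABCB5+ animals 36 and 37 scored 80.8 to 97.4, and the other 20 animals lay between -53.0 and 11.5. The comparisons below are given with and without these 4 animals. In these 4, injured tubule markers (all 8 in the files, among them Havcr1, Spp1 and Lcn2) summed to 809.6 to 1237 CPM (counts scaled to the library total, with TMM factors), against 9417 to 15127 in Ctrl. Early proximal tubule markers (7 of 7 in the files) summed to 7446 to 12329.7, against 1868 to 6409 in Ctrl. Such sums weigh the most abundant markers most. As a mean of centred log2 CPM, this list had 0.37, 0.55, 0.84 and 1.30 in animals 39, 38, 36 and 37. The other animals reached 0.95, so only animal 37 lay above them. Thick ascending limb markers (5 of 5) summed to 8789.6 to 12134 in the animals apart, against 2175 to 8032 in Ctrl. In i.p. ABCB5+ animals not apart this sum reached 8841. The mean of centred log2 CPM of this list was 0.67, 0.90, 0.47 and 0.67 in animals 39, 38, 36 and 37. The other animals reached 0.69, so only animal 38 lay above them. In the animals apart, fibroblast and pericyte markers (6 of 6) summed to 196 to 599, against 907 to 3307 in Ctrl. Macrophage markers (6 of 6) summed to 52.2 to 155 against 280.0 to 725 CPM, and T cell markers (4 of 4) to 10.3 to 14.6 against 28.4 to 73.1. Late proximal tubule markers (5 of 5) were above the Ctrl range (196 to 1715 CPM) in animals 39, 36 and 37 (3225 to 6930.0) and inside it in animal 38 (1459). In bulk tissue, fewer cells of a type and less RNA per cell cannot be told apart, and the part of these lists in the results on the chain was not tested.

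Levels were compared between genes on the TPM scale, which is corrected for transcript length. Of the 80 members, 74 were among the top 10% of tested genes by mean TPM, and only 5 had a mean under 50 TPM. Complex V held the largest summed level in Ctrl, at 15511 ± 1162 TPM (SD, n = 6), followed by complex IV at 12317 ± 844, complex I at 10742 ± 833, complex III at 3687 ± 259.8 and complex II at 1529.7 ± 220.1. The Ctrl ranges of neighbours in this order did not overlap, except those of complexes IV and I (11185 to 13371 and 9745 to 11720 TPM), although complex IV exceeded complex I in every animal. The shares of the complexes in the members' summed TPM varied little over all 24 animals: 34.7% to 36% for V, 27% to 29% for IV, 23.9% to 25.2% for I, 8.07% to 8.74% for III and 3.05% to 4.09% for II. Per member, complex I was lower, with a median of 297 TPM over its 36 members, close to complex III (368) and complex II (404), and below complexes V (927) and IV (1029).

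The highest members were Cox8a, a small structural subunit of complex IV (2062 TPM over 24 animals), and Atp5f1b, the catalytic β subunit of ATP synthase (2058 TPM). They were followed by Cox6a1 (1989.9), Atp5f1e (1903), Cox7b (1643) and Cox6b1 (1599). In complex I the accessory subunit Ndufb4 was highest (840.0 TPM), and the core subunit Ndufs1, which carries iron-sulphur clusters, had 146 TPM. The subunits of complex II ranged from 342 (Sdha, the flavoprotein) over 382 (Sdhd) and 427 (Sdhb) to 556 TPM (Sdhc). In complex III, Uqcr10 was highest (872) and Uqcrq lowest (139.8), with 368 TPM for Cyc1 (cytochrome c1), 429 for Uqcrfs1 (the Rieske protein), 296 for Uqcrc1 and 304 for Uqcrc2. In complex V, Atp5pb of the stalk was lowest (272 TPM), Atp5f1a reached 1028 and Atp5f1c 548, and the genes of the c ring, Atp5mc1, Atp5mc2 and Atp5mc3, had 927, 1041 and 846 TPM. Atp5if1, the inhibitor of ATP synthase, had 650.0 TPM. The 5 members under 50 TPM were Ndufa10l1 (33.9), Cox6b2 (19.8), Ndufa4l2 (15), Cox4i2 (10.4) and Cox6a2 (8.83), all isoforms or paralogs of a highly expressed member.

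**Figure D1:**
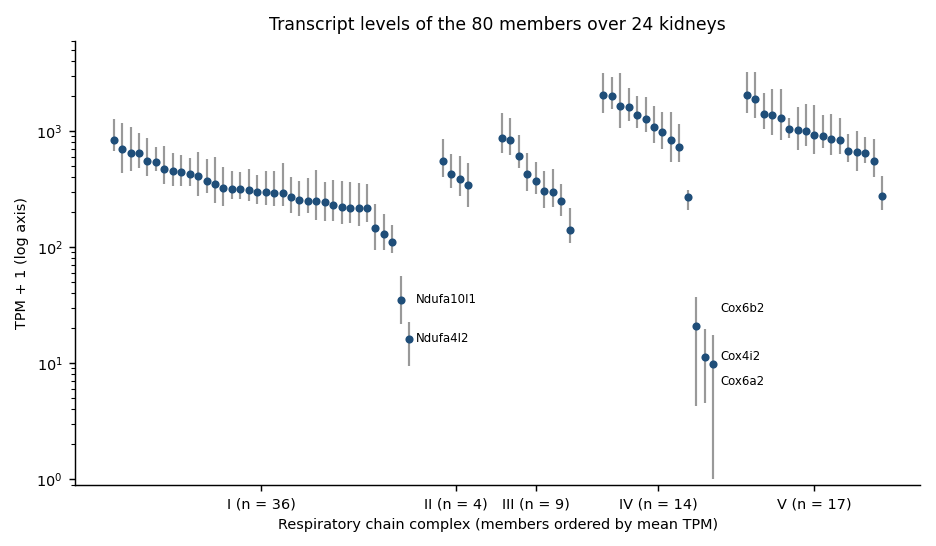
Mean TPM plus 1 of each of the 80 members (points, log axis) with the lowest and highest of 24 animals (lines), ordered by level within each complex. Most members lie above 100 TPM, and the 5 named paralogs in complexes I and IV lie below 50 TPM.

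For each animal and complex a score was computed, with no test, as the mean of its members' log2 CPM, centred on the 24 animals. In the order Ctrl, CoCM, i.p. and i.v. cells, the complex I score was -0.21 ± 0.15, 0.10 ± 0.30, 0.06 ± 0.51 and 0.05 ± 0.46 (mean ± SD, n = 6 each, log2). Complex III had -0.20 ± 0.14, 0.09 ± 0.30, 0.06 ± 0.50 and 0.05 ± 0.44 in the same order, and complex V -0.20 ± 0.17, 0.10 ± 0.31, 0.05 ± 0.52 and 0.05 ± 0.47. Complex II had -0.20 ± 0.22, 0.03 ± 0.37, 0.04 ± 0.50 and 0.13 ± 0.54, and complex IV -0.10 ± 0.15, 0.09 ± 0.10, 0.04 ± 0.31 and -0.03 ± 0.22. In every complex the treated means were above the Ctrl mean, the groups overlapped, and the spread in both cell groups was wider than in Ctrl. Medians lay closer than means: for complex I they were -0.17, 0.03, 0.05 and -0.17 in that order. Without the 4 animals apart, the complex I means were -0.02 ± 0.13 in CoCM (n = 5), -0.10 ± 0.37 with i.p. cells (n = 5) and -0.24 ± 0.11 with i.v. cells (n = 4), the last below Ctrl.

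To show the levels behind the scores, a subunit from each complex was taken from a list of 24 core subunits. For complex IV, whose catalytic subunits are mitochondrial, the list held Cox4i1, Cox5a and Cox5b. Levels are given as mean TPM ± SD (n = 6) in the order Ctrl, CoCM, i.p. and i.v. cells. Ndufv1, which binds NADH in complex I, had 226 ± 28.2, 254 ± 56.2, 262 ± 58.4 and 276 ± 69.9. Sdha, which oxidises succinate, had 315 ± 64.7, 325 ± 91.9, 351 ± 83.1 and 378 ± 104. Uqcrfs1, the iron-sulphur protein of complex III, had 376 ± 53.7, 432 ± 113, 449 ± 111 and 459 ± 129. In each of them the Ctrl mean was the lowest and the treated SDs were wider than in Ctrl. Cox4i1, the usual subunit IV of complex IV, had 1255 ± 71.8, 1408 ± 196, 1421 ± 317 and 1360.0 ± 203. Atp5f1b, which carries the catalytic sites of complex V, had 1849 ± 300.2, 2021 ± 494, 2139 ± 581 and 2225 ± 567. The treated means differed from Ctrl by less than the SD of the treated group for all 5, and none of these subunits passed the adjusted test given below.

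**Figure D2:**
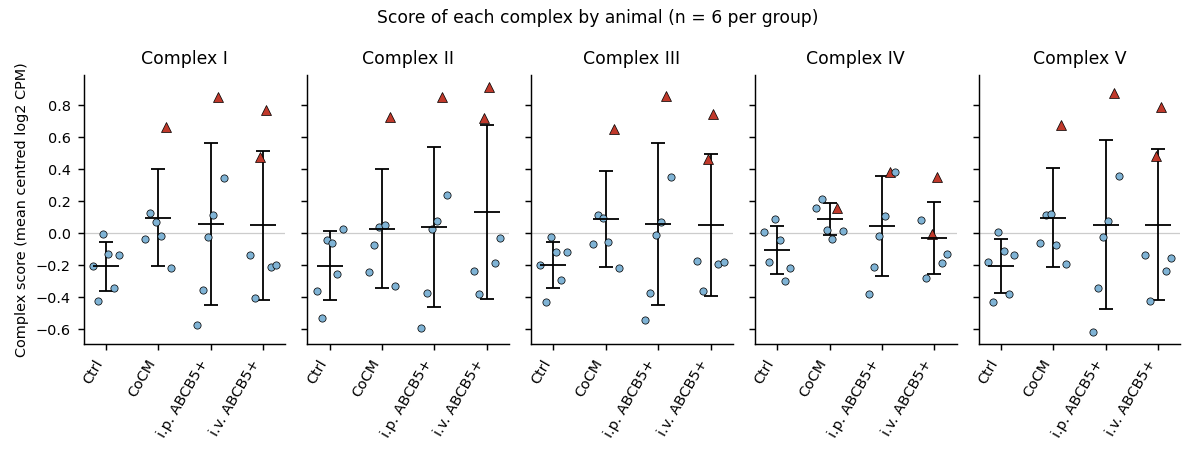
Score of each complex (mean centred log2 CPM of its members) for every animal by group, with mean and SD bars (n = 6 per group) and red triangles for the 4 animals apart. In complexes I, II, III and V the triangles are the highest points, from 0.47 to 0.91, and in complex IV they lie from -0.01 to 0.38.

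The complexes moved together from animal to animal. The scores of complexes I, III and V differed within an animal by 0.01 to 0.09 (median 0.03), while the mean over all members ran from -0.54 in i.p. ABCB5+ animal 29 to 0.77 in i.p. ABCB5+ animal 38, so the widest range lay inside 1 treatment group. The animals apart had the 4 highest means over all members (0.77, 0.70, 0.58 and 0.40 for animals 38, 37, 39 and 36), followed by i.p. animal 41 (0.35), which did not stand apart. The lowest were i.p. animal 29 (-0.54), Ctrl animal 12 (-0.39) and i.v. animal 33 (-0.38). Over all 5 complexes the spread within an animal was 0.05 to 0.73 (median 0.20), and the widest, in i.v. animal 36, was between complex II (0.72) and complex IV (-0.01). When Cox4i2, Cox6a2, Cox6b2 and Ndufa4l2 were left out, a choice made after seeing the data, the spread was 0.04 to 0.37 (median 0.12), and the complex IV score of i.v. animal 36 was 0.35.

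**Figure D3:**
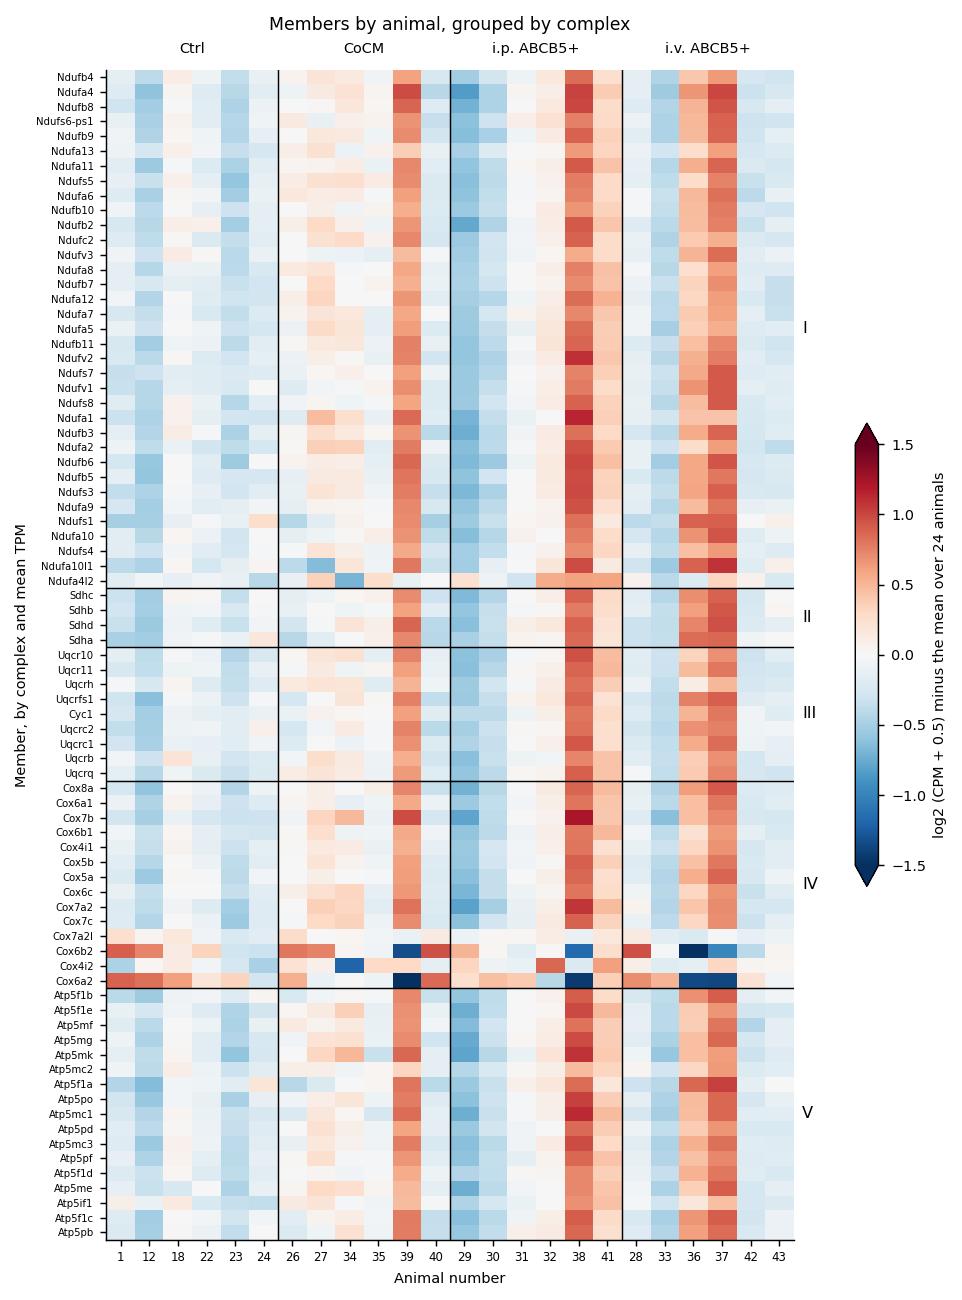
Centred log2 (CPM + 0.5) of 79 of the 80 members (rows, by complex and mean TPM) in the 24 animals (columns, by group and animal number), with colours ending at 1.5 in either direction. Columns of animals 39, 38, 36 and 37 are red in nearly every row, and the rows of Cox7a2l, Cox6b2, Cox4i2, Cox6a2 and Ndufa4l2 do not follow the rest.

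Within their own groups, the animals apart exceeded every other animal not apart for 75 of 80 members (CoCM animal 39), 76 (i.p. animal 38), 75 (i.v. animal 36) and 77 (i.v. animal 37). The same held for 35%, 34.7%, 34.8% and 36.1% of all genes tested. The difference of each member from the median of those other animals had a median of 0.67, 0.88, 0.67 and 0.99 on the log2 CPM scale. On the log2 TPM scale it was 0.56, 0.63, 0.45 and 0.61, where all genes had medians of -0.10, -0.20, -0.25 and -0.43. These animals were singled out by a component to which the members contributed, so the values are a description. Sdha, the flavoprotein of complex II, had 896, 979.7, 972 and 988 CPM in animals 39, 38, 36 and 37, and 378, 517 and 615 (lowest, median, highest) in Ctrl. Cyc1 had 432, 494, 402 and 491 CPM in animals 39, 38, 36 and 37, and 199, 256 and 266 in Ctrl. Atp5f1a, the α subunit of ATP synthase, had 2251, 2308, 2351 and 2628 CPM in animals 39, 38, 36 and 37, and 824, 1191 and 1470.5 in Ctrl. For these subunits all 4 animals lay above every Ctrl animal.

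Of the 80 members, 75 lay above the other animals of the group in all 4 animals apart, and the other 5 did not do so in each of them. Cox6a2, the subunit VIa isoform of heart and skeletal muscle, had 0, 0.242, 0.285 and 0.279 CPM in animals 39, 38, 36 and 37, from 0, 2, 3 and 3 counts, whereas Ctrl had 1.16, 2.31 and 3.22. A count of 0 in CoCM animal 39 allows up to 0.341 CPM, from 3 counts on the same TMM scale. Cox6b2, known from testis, had 1.14, 1.33, 0.760 and 1.58 CPM in animals 39, 38, 36 and 37, against 2.78, 4.33 and 7.14 in Ctrl. Both isoforms were thus lower in all 4 animals than in any other animal of the series, at levels of a few CPM. Cox7a2l, a factor of supercomplex assembly, had 205, 203, 189 and 217 CPM in animals 39, 38, 36 and 37, against 187, 218 and 260.5 in Ctrl. On this scale animals 39, 38 and 36 lay below every other animal of their group, and animal 37 did not. On the TPM scale Cox7a2l had 224, 211, 206 and 211 in animals 39, 38, 36 and 37. All other animals of the series were higher, the lowest being Ctrl animal 24 with 254 TPM. Cox4i2, the isoform of subunit IV linked to low oxygen, had 4.89, 3.27, 3.51 and 4.93 CPM in animals 39, 38, 36 and 37, and 2.62, 3.48 and 4.26 in Ctrl. Ndufa4l2, a paralog of Ndufa4 that is induced in low oxygen, had 7.85, 13.2, 7.31 and 10.8 CPM in animals 39, 38, 36 and 37, and 6.24, 7.80 and 8.30 in Ctrl. Skeletal and heart muscle markers (5 of 5) summed to 1.21 to 2.91 CPM in the animals apart and 5.66 to 20.7 in Ctrl. Their part in the Cox6a2 values was not tested. Across the 24 animals Cox6a2 and Cox6b2 correlated least with the mean of the rest of complex IV (Pearson r = -0.66 and -0.42), given as a description over animals that share groups and include the 4 apart. Cox4i2 (0.12), Ndufa4l2 (0.36 with complex I) and Cox7a2l (0.39) came next, and the other 75 members had r of 0.747 (Cox7b) or higher.

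**Figure D4:**
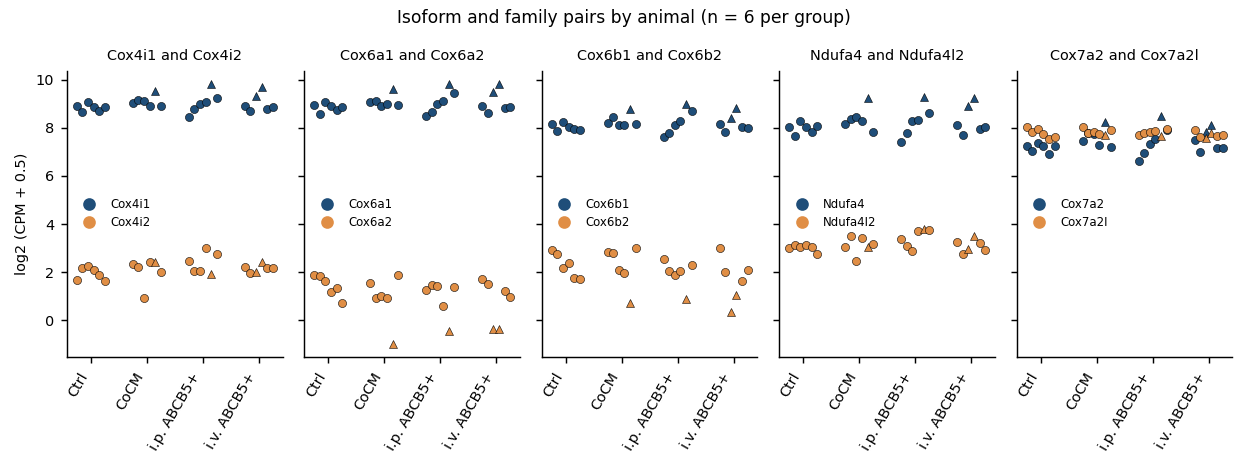
Levels as log2 (CPM + 0.5) of 5 isoform or family pairs in every animal by group (n = 6 each), with triangles for the 4 animals apart. The triangles lie at or near the top for Cox4i1, Cox6a1, Cox6b1, Ndufa4 and Cox7a2, and at the bottom for Cox6a2 and Cox6b2. For Cox7a2l those of animals 39, 38 and 36 are the lowest of their groups, and that of animal 37 lies among the other points.

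CoCM was compared with Ctrl in a fit of all 24 animals. No member passed an adjusted p of 0.05, where 0.00783% of all genes did, and the smallest adjusted p of a member was 0.404 (edgeR quasi-likelihood test, Benjamini-Hochberg over 12778 genes). DESeq2 called 0 members as well. The fitted log2 fold change was above 0 for 79 of 80 members, against 51.4% of all genes, with a median of 0.32 against 0.01. By complex the median was 0.33 in I (36 of 36 above 0), 0.25 in II (4 of 4), 0.31 in III (9 of 9), 0.30 in IV (13 of 14) and 0.33 in V (17 of 17). At an unadjusted p under 0.05, 3 members were higher and 0 lower, against a background of 5.96% of genes in each direction, so that 3 of 80 did not exceed it. This reading depended on the fit: with only the CoCM and Ctrl groups in it 44 members were higher (8.54% of genes), and with library totals alone 13 (4.81%), again with 0 past the adjusted threshold.

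The 3 were Ndufa2, Cox7b and Ndufa7. Ndufa2, an accessory subunit of the complex I matrix arm, had 47.7, 51.6 and 59.4 CPM (lowest, median, highest) in Ctrl and 55.5, 71.3 and 108 in CoCM. The groups overlapped, and the log2 fold change was 0.49 (SE 0.22, edgeR adjusted p = 0.404). Cox7b, a small subunit of complex IV, had 212, 246 and 282 CPM in Ctrl and 253, 333 and 594 in CoCM (log2 fold change 0.58, SE 0.28, edgeR adjusted p = 0.416). Ndufa7, another accessory subunit of complex I, had 48.0, 52.9 and 61.3 CPM in Ctrl and 56.5, 66.9 and 93.4 in CoCM (log2 fold change 0.39). Only Cox6a2 had a value below 0, at -0.47 (SE 0.56). Every CoCM animal lay above every Ctrl animal for 2 members, against 0.853% of all genes, and for no member did all lie below (0.524% of genes). These were Ndufs7, a core subunit with an iron-sulphur cluster (84.5, 93.4 and 96.0 CPM in Ctrl, 101, 108 and 166 in CoCM, adjusted p = 0.489 in edgeR), and the accessory subunit Ndufb7 (64.3, 70.1 and 73.4 CPM in Ctrl, 75.3, 82.6 and 117 in CoCM, adjusted p = 0.436). Among the named core subunits of complex I the log2 fold change ranged from 0.15 (Ndufs1) to 0.38 (Ndufs3), in complex III from 0.24 (Uqcrc2) to 0.32 (Uqcrfs1), in complex IV (Cox4i1, Cox5a, Cox5b) from 0.28 (Cox4i1) to 0.33 (Cox5b) and in complex V (Atp5f1a, Atp5f1b, Atp5f1c and the c ring genes) from 0.20 (Atp5f1a) to 0.34 (Atp5mc3). Without the 4 animals apart, 75 of 80 members were above 0 with a median of 0.18, and 7 were higher at an unadjusted p under 0.05, against 7.22% of all genes in that fit. By complex the median was then 0.19, 0.09, 0.16, 0.19 and 0.16 from I to V. With an offset for transcript length the median was 0.16, and 0 members had a p under 0.05 (4.51% of genes higher).

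The i.p. ABCB5+ group showed a similar median shift with a wider spread. No member and no gene (0.0%) passed the adjusted threshold, and the smallest adjusted p of a member was 0.978 in edgeR. DESeq2 also called 0. Above 0 were 78 of 80 members (51.0% of genes), with a median of 0.32. By complex the median log2 fold change was 0.34 (I), 0.28 (II), 0.35 (III), 0.30 (IV) and 0.32 (V). At an unadjusted p under 0.05, 2 members were higher (1.26% of genes) and 0 lower (0.509%). No member separated the groups fully, as did 0.0% of genes upward and 0.047% downward. The 2 members were the paralogs linked to low oxygen. Ndufa4l2 had 6.24, 7.80 and 8.30 CPM in Ctrl and 6.85, 11.4 and 13.2 in i.p. ABCB5+, which gave 0.48 in log2 fold change (SE 0.18, edgeR adjusted p = 0.978). Cox4i2 had 2.62, 3.48 and 4.26 CPM in Ctrl and 3.27, 4.33 and 7.48 in i.p. ABCB5+, which gave 0.51 in log2 fold change (SE 0.25, edgeR adjusted p = 0.978). In both the groups overlapped. Ndufa7 came next (0.38). Cox6a2 (-0.51, SE 0.56) and Cox6b2 (-0.35, SE 0.44) were below 0. The core subunits of complex I ranged from 0.24 (Ndufs1) to 0.41 (Ndufv2), and those of complex V from 0.21 (Atp5mc2) to 0.43 (Atp5mc1). Without the 4 animals apart, 78 of 80 were above 0 with a median of 0.13, and 2 members were higher at an unadjusted p under 0.05 (0.714% of genes). This group held both the lowest and the highest animal of the series: without animal 29 the count at an unadjusted p under 0.05 was 27 (3.5% of all genes higher in that fit), without animal 30 it was 11 (2.28%), and in no such fit did a member pass the adjusted threshold.

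In i.v. ABCB5+ against Ctrl, 77 of 80 members were above 0 (52.6% of genes), with a median of 0.31, and 0 had an unadjusted p under 0.05 in edgeR (4.44% of genes higher, 1.34% lower) or in DESeq2. None passed the adjusted threshold (0.0% of genes), the smallest adjusted p being 0.673. No member separated the groups fully, against 0.0548% of genes in each direction. By complex the median was 0.31, 0.40, 0.32, 0.26 and 0.34 from I to V. The smallest p-values belonged to core subunits. Ndufs7 had 84.5, 93.4 and 96.0 CPM in Ctrl and 86.0, 97.8 and 204 with i.v. cells (log2 fold change 0.43, SE 0.21, edgeR adjusted p = 0.673). Ndufv1, the NADH-binding subunit, had 187, 218 and 253 CPM in Ctrl and 197, 229 and 475 in i.v. ABCB5+ (log2 fold change 0.43). Sdhb, the iron-sulphur subunit of complex II, had 177, 228 and 248 CPM in Ctrl and 197, 242 and 483 with i.v. cells (log2 fold change 0.41). The high values were those of animals 36 and 37, which had 402 and 475 CPM of Ndufv1, while the other 4 had 197 to 229.7. Below 0 were Cox6a2 (-0.60), Cox6b2 (-0.48) and Cox7a2l (-0.08). Without the 4 animals apart the direction turned for most members: 12 of 80 were above 0, with a median of -0.04, and the complex medians ran from -0.05 (IV) to -0.02 (II), with 0 members at an unadjusted p under 0.05 (0.753% of genes higher, 0.481% lower). Leaving out animal 37 alone gave a median of 0.12, and animal 36 alone 0.22. The 3 comparisons share the Ctrl animals and are not independent of each other. In the test over the 4 groups, 0 members had an unadjusted p under 0.05 (4.71% of genes), the smallest edgeR adjusted p being 0.817.

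Between the routes of injection, the members' differences lay on both sides of 0. In i.p. against i.v. ABCB5+, 45 of 80 log2 fold changes were above 0 (49.8% of genes), with a median of 0.02, and 0 members passed an unadjusted p of 0.05 (0.689% of genes higher, 1.46% lower) or the adjusted threshold (0.0%) in edgeR, and 0 did in DESeq2. No member separated the routes fully (0.0313% of genes in each direction). The medians were 0.01 in complex I, -0.12 in II, 0.01 in III, 0.07 in IV and 0.03 in V. Complex II had all 4 members below 0, from -0.14 (Sdha) to -0.07 (Sdhd). Of the 24 listed core subunits 19 were below 0 (median -0.05), and of the other 56 members 40 were above 0 (median 0.05). The smallest p-values were those of Ndufa4l2 (log2 fold change 0.37, SE 0.18), Cox4i2 (0.29) and Cox7a2l (0.09) upward, and of Ndufs1 (-0.19, SE 0.26), Ndufv3 (-0.12) and Sdhb (-0.14) downward. Without the 4 animals apart, 78 of 80 members were above 0 with a median of 0.17, and Ndufs1, Ndufv3 and Sdhb changed sign. With the offset for transcript length 16 of 80 were above 0, with a median of -0.06. Without i.p. animal 38 alone the median was -0.17 (5 of 80 above 0), and without i.v. animal 37 alone 0.20 (77 of 80).

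**Figure D5:**
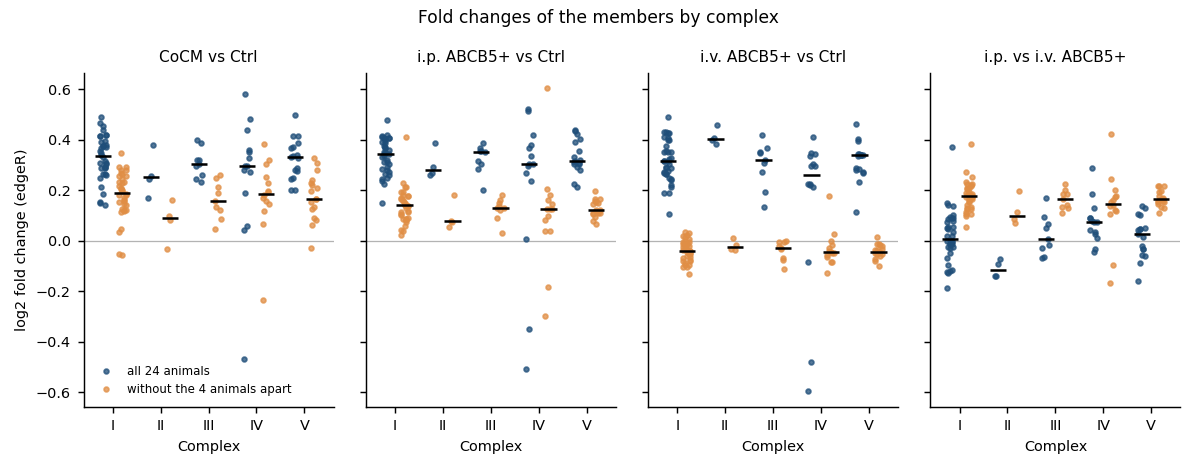
Fitted log2 fold change of every member by complex in the 4 comparisons, with all 24 animals (blue) and without the 4 animals apart (orange), and black lines for the medians. In the i.v. comparison the medians move from between 0.26 and 0.40 to between -0.05 and -0.02, and in CoCM they stay above 0, from 0.09 to 0.19.

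Ratios of isoforms were tested as single values per animal, as log2 (TPM + 0.1) of the alternative over the usual form. Cox4i2/Cox4i1, Cox6a2/Cox6a1 and Ndufa4l2/Ndufa4 could be formed from members, and 12 two-sided exact permutation tests (6 against 6 animals) were made. Cox6a2/Cox6a1 was -7.35 ± 0.59, -8.88 ± 2.89, -8.30 ± 1.63 and -8.56 ± 1.89 in the order Ctrl, CoCM, i.p. and i.v. cells. The smallest exact p of the 12 was that of CoCM against Ctrl in this pair, at 0.152 (adjusted 0.706). In all 4 animals apart the ratio ran from -10.7 to -14.7, while no other animal was below -8.68. Cox4i2/Cox4i1 was -7.11 ± 0.32, -7.27 ± 0.70, -6.86 ± 0.72 and -7.06 ± 0.31. Ndufa4l2/Ndufa4 was -5.41 ± 0.31, -5.70 ± 0.66, -5.26 ± 0.55 and -5.64 ± 0.51 in the same order. No ratio passed the test, and the ranges of the groups overlapped in every comparison.

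Other genes of the pathway were read from lists. Ndufab1, a complex I subunit outside the symbol rule, had log2 fold changes of 0.37 (CoCM), 0.30 (i.p. cells) and 0.26 (i.v. cells) against Ctrl. Of 50 assembly factors 41 were in the files, with 39, 40 and 38 above 0 in these comparisons and medians of 0.19, 0.17 and 0.17, lower than those of the subunits. In CoCM 3 of them had an unadjusted p under 0.05 upward, Cox19, a copper-handling protein (0.43), Coa3 (0.35) and Cox18 (0.24), both needed to build complex IV. This is 3 of 41, beside 5.96% of all genes higher in that comparison. Of 17 electron carriers and feeders 16 were in the files, and all 16 were above 0 in each comparison, with medians of 0.27, 0.25 and 0.36. Cycs (cytochrome c) had 0.57, 0.37 and 0.80, and Coq5, of ubiquinone synthesis, was the only one with an unadjusted p under 0.05 (CoCM, 0.30). That is 1 of 16, beside 5.96% of all genes higher in CoCM.

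Of the 15 regulators of mitochondrial genes, 6, 10 and 14 were above 0 in the CoCM, i.p. and i.v. comparisons, with medians of -0.07, 0.06 and 0.13. In CoCM the transcripts of Gabpa (-0.24) and Yy1 (-0.22), whose cores were searched in the promoters, and of Polg, the mitochondrial DNA polymerase (-0.27), were lower at an unadjusted p under 0.05, and Twnk, the helicase, was higher (0.28). These are 3 and 1 of 15, beside 5.96% of all genes in each direction. Nrf1 had -0.09, -0.04 and 0.07 in the 3 comparisons, Ppargc1a -0.11, 0.15 and 0.11, and Esrra 0.23, 0.24 and 0.22. In i.v. ABCB5+, Polrmt had an unadjusted p under 0.05 (0.25), which is 1 of 15, beside 4.44% of all genes higher in that comparison. The smallest adjusted p of a regulator in CoCM was 0.315.

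Members are encoded by short transcripts. Their median effective length, relative to the typical gene, was 0.227 (1.03 over all genes tested), and only 3.26% of genes tested were shorter, with Atp5me (0.055) and Atp5mk (0.063) at the short end and Sdha (1.11) and Ndufs1 (1.22) at the long end. Across the 80 members, which are not independent of each other, Spearman's rho of length with the log2 fold change was -0.47, -0.13 and 0.51 in the CoCM, i.p. and i.v. comparisons with Ctrl, and -0.59 in i.p. against i.v. Thus in CoCM the short subunits Atp5mk (0.50) and Ndufa2 (0.49) had larger values than Sdha (0.17) and Ndufs1 (0.15). In i.v. ABCB5+ the order was the other way, with 0.28 and 0.26 for the short and 0.40 and 0.43 for the long. The part of transcript length in these differences was not tested beyond the offset above.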

How the data were processed

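Total RNA of the left kidney of 24 rats was sequenced. Per the labels, the authors used Trim Galore 0.6.4 and kallisto 0.4.6 with genome build rn6. The study's methods name a human annotation for the gene summary, and which one made the files was not settled. The deposited files hold, per gene, estimated counts, which need not be whole and were rounded here, and TPM values, which the authors' counting scales for transcript length. Every column mapped to a sample (0 were left out). Symbols for 17179 of 17334 identifiers came from the RefSeq table of GRCr8.

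The counts were fitted with edgeR 4.0.16 (R 4.3.3) in 1 quasi-likelihood model of the 4 groups, with TMM scaling, filterByExpr (12778 genes left), a prior count of 2 and Benjamini-Hochberg adjustment over all genes tested at 0.05. A gene's SE was its log2 fold change divided by the root of F. CPM values are TMM-scaled. Scores and TPM sums carry no test, and isoform ratios were tested by exact permutation with a pseudocount of 0.1 TPM. The fit was tested on simulated data. Alternatives were DESeq2 1.42.0, other scalings and filters, only 2 groups in the fit, an offset for transcript length, leaving out 4 animals and leaving out each animal. The members, lists, motifs and alternatives were chosen with earlier results of these data known. Named were the 24 subunits of a core list (for complex IV, Cox4i1, Cox5a and Cox5b), alternative isoforms, the highest and lowest member of each complex, up to 3 members per direction with the smallest p in each comparison and the members least like their complex. Others named for not overlapping between groups or for transcript length were chosen after their values were seen. Of the members, 1 is not reported by name and is left out of the heat map, while counts, medians and scores include it. No animal number was shared between groups. Total counts of 9304630 to 14125457 leave members of a few CPM with few reads.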

Additional observations from a re-analysis of the deposited data

Results flagged for a closer look

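For 27 measures (complex scores, TPM sums, isoform ratios and named members) each group of 6 was searched for an animal far from the others, by a gap to the nearest animal of over 0.625 of the group's range. This marked 14 of 108 cases, where chance marks about 1 in 20, and 11 of the 14 were CoCM animal 39, which also stood apart over all genes. Its complex II score was 0.72 (the other CoCM animals had -0.33 to 0.05) and its complex V score 0.68 (-0.19 to 0.12). Its summed TPM was 2456 for complex II (others 1334 to 1752), 5714 for complex III (3583 to 4355) and 24806 for complex V (15054 to 18319). Among core subunits of complex I it had 415 CPM of Ndufs1 (others 179.6 to 265), 166 of Ndufs7 (101 to 113) and 407 of Ndufv1 (218 to 260.1), and it had 215 of the accessory subunit Ndufv3 (141 to 156). Sdhb of complex II stood at 383 CPM (223 to 250.3).

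In the log2 ratio of Cox6a2 to Cox6a1, CoCM animal 39 had -14.68 (others -8.26 to -6.92), with 0 counts of Cox6a2, so that the value is set by the pseudocount, and i.p. ABCB5+ animal 38 had -11.39 (-8.68 to -7.08), with 2 counts. CoCM animal 34, which did not stand apart, had the lowest log2 ratio of Cox4i2 to Cox4i1, at -8.62 (-7.27 to -6.64). Ctrl animal 24 had 6.24 CPM of Ndufa4l2, below the 7.56 to 8.30 CPM of the other Ctrl animals.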

How the results depend on the processing

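No paired analysis was possible because no animal number was shared between the groups. Under alternatives other than leaving out single animals, 431 recomputed counts, scores, ratios, medians over all members and named members kept their direction or size within the limits set, 13 moved and 3 turned, and the cause was not tested. Medians by complex are not in that tally: all 5 turned in i.v. ABCB5+ against Ctrl without the 4 animals apart (then -0.05 to -0.02), and in i.p. against i.v. complex II turned without these animals and 4 (I, III, IV and V) with the length offset (the 5 then -0.15 to -0.03). The number of members higher than Ctrl at an unadjusted p under 0.05 was 3 in CoCM, and became 13 with library totals alone (4.81% of all genes in that fit), 1 with median-ratio size factors (5.28%), 44 with only the 2 groups compared in the fit (8.54%), 0 with the length offset (4.51%) and 7 without the 4 animals apart (7.22%). In i.p. ABCB5+ it was 2, and 1 with median-ratio size factors, with either count filter, with only the 2 groups or with the length offset (0.947% to 1.25%). In i.v. ABCB5+ it was 0, and 1 with the length offset (5.48%), and in i.p. against i.v. it was 0, and 1 with library totals alone (1.35%). In none of these fits did a member pass the adjusted threshold. Leaving out each animal gave 0 to 10 members in CoCM (10 without CoCM animal 40, where 7.62% of genes were higher, 0 without CoCM animals 27 or 39 or Ctrl animals 12, 22, 23 or 24), 0 to 27 in i.p. ABCB5+ (0 without i.p. animal 41), 0 to 5 in i.v. ABCB5+ (5 without i.v. animal 33, 7.26% of genes), 0 to 1 in i.p. against i.v., and 0 to 1 lower in i.v. ABCB5+. Without the 4 animals apart the log2 fold change between routes turned to 0.056 for Ndufs1, 0.11 for Ndufv3 and 0.069 for Sdhb. Leaving out each animal gave -0.24 (without i.p. animal 38) to 0.061 (without i.v. animal 37) for Ndufv3 and -0.32 to 0.058 for Sdhb. Without Cox4i2, Cox6a2, Cox6b2 and Ndufa4l2, an alternative added after seeing the data, the complex IV score difference from Ctrl was 0.32, 0.24 and 0.22 (0.19, 0.15 and 0.08 with them) for CoCM, i.p. and i.v. cells. Depth limits Cox6a2, Cox6b2, Cox4i2 and Ndufa4l2, which had few counts per library.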
